A study of Sus scrofa with 8 samples.

Results

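The fibroblast growth factor (FGF) pathway was followed through 10 genes in the developing pig somite and myotome: the ligands FGF8, FGF9 and FGF10, the receptors FGFR1, FGFR2, FGFR3 and FGFR4, and the feedback inhibitors SPRY1, SPRY2 and SPRY4. The genes were given by name, and each had a row among the 21301 genes counted. Single cells came from Tibetan pigs (ZZ) and DurocxTibetan pigs (DZ) at embryonic day (E) 16, E18 and E21, when somites were taken, and at E28, when the tissue was the myotome. Each of the 8 libraries held pooled embryos (5 per pool) of a single sow, dissociated with collagenase, so stage and breed were each seen through 1 library per combination. E16 and E18 are called early and E21 and E28 late, with 4 libraries in each period. The change of tissue at E28 cannot be told apart from the change of stage.

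FGF ligands are secreted proteins that bind receptor tyrosine kinases of the FGFR family at the cell surface, with heparan sulphate as a cofactor. The receptors signal through adaptors to the RAS and MAP kinase relay, and Sprouty proteins, which that relay induces, damp it in turn. In the somite and early muscle, FGF signals act on progenitor growth, on the tendon progenitors next to the myotome and on cartilage.

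After filtering, 74147 cells and 382956742 unique molecular identifiers (UMIs) remained, with 5436 to 10956 cells and a median of 3405 to 6160 UMIs per cell in a library. E16-ZZ stood apart, with 39.2% of barcodes over the mitochondrial limit against 1.05% to 9.15% in the others, and both E16 libraries were counted with another Cell Ranger version (3.1.0) than the rest (3.0.2). Pairs of libraries shared 13 to 38 cell barcodes. Levels are given as CPM, a gene's UMIs scaled to a common library total, and paired values list ZZ first and DZ second. Cells were gated by marker genes that did not include the 10, and 15 gated groups had at least 20 cells in 3 or more libraries. The markers held back for checking were over 2-fold higher in 1 of 4 cases for the tendon-gene group and in 2 of 4 for the PAX3+ and PAX1/PAX9 groups, so these are named by their gating genes. Erythroid cells, assumed to lack the pathway, gave the background: 0 to 2.84 CPM for FGF8, 0 to 8.7 for FGFR1, 0 to 3.26 for SPRY1 and 0 to 9.78 for SPRY2, the highest of which was 3 UMIs in E28-DZ. The globin genes HBE1 and HBZ were at 275305 and 163098 CPM in these cells. They lower the CPM of every other gene there, so this background can be too low for the other groups.

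SPRY2 and SPRY4, inhibitors that the MAP kinase relay induces, are shown first by sequence, because their start windows held matches to the ETS core and overlapped no other exon of the gene. SPRY2 (chr11:52153695-52158766, minus strand) and SPRY4 (chr2:143877334-143891280, minus strand) are on the Sscrofa11.1 assembly, annotated by RefSeq. The 250 bases before each annotated start are printed with motif matches in capitals.
SPRY2, chr11:52158767-52159016: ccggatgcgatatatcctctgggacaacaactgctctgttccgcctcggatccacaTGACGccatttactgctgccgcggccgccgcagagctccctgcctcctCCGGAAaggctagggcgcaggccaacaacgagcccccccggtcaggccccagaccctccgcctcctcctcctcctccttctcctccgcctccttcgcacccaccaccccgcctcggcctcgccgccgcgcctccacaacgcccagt
SPRY4, chr2:143891281-143891530: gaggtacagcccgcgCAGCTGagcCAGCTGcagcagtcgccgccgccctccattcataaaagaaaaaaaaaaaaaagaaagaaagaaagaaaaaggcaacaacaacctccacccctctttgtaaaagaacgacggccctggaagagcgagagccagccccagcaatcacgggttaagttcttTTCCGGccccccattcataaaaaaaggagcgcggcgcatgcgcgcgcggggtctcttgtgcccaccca
The motifs searched on both strands were the ETS core CCGGAA, the E-box CAGCTG, the AP-1 site TGANTCA and the CRE core TGACG. The string CCGGAA, called the ETS core here, is a form of the letters bound by ETS factors that act below the MAP kinases. It was matched once in each window, and 14.2% of all 19556 protein-coding windows of this length held it. The windows were picked for this match, so that share is no test of it. No other member held CCGGAA in its window, which was read at 1 annotated start per gene. Shorter forms were not searched. SPRY2 also held 1 CRE core (20.1% of windows) and SPRY4 held 2 E-boxes (13.8% of windows). The AP-1 site was in neither (5.06% of windows). The window of SPRY1 held no match to any of these motifs. It overlaps an exon of a longer SPRY1 transcript and is not printed. These matches are descriptions of the letters.

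Across whole libraries the ligand FGF9, the receptors FGFR1 and FGFR4 and the inhibitor SPRY2 were higher late, and the ligand FGF10 was lower. These were 5 of the 10 genes at an adjusted p under 0.05 (edgeR quasi-likelihood test, breed as a covariate), against 34.4% of the 14683 genes tested (16.7% higher and 17.7% lower). FGF9, a ligand made by differentiating muscle among other tissues, was at 2.94 and 2.66 at E16, 6.97 and 4.43 at E18, 13.8 and 8.32 at E21, then 16 and 23 at E28 CPM. Every late library was above every early one (log2 fold change 1.69 ± 0.37 (SE), adjusted p = 0.012). Differences in parentheses are log2 fold changes ± SE with the Benjamini-Hochberg adjusted p of edgeR's quasi-likelihood test. The SE was derived from that test, as the absolute log2 fold change over the square root of its F statistic. FGFR1, a receptor of mesenchyme and progenitor cells, was at 41.6 and 50.9 at E16, 63.9 and 72 at E18, 79.3 and 89.8 at E21, then 119.6 and 110.2 at E28 CPM, again without overlap between periods (log2 fold change 0.64 ± 0.18 (SE), adjusted p = 0.03). FGFR4, a receptor known from embryonic myoblasts, was at 1.61 and 2.33 at E16, 5.63 and 3.77 at E18, 5.4 and 4.7 at E21, then 26.3 and 38 at E28 CPM. Both E28 libraries were far above the other 6, while E21 overlapped E18 (log2 fold change 2.30 ± 0.75 (SE), adjusted p = 0.046).

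SPRY2 was at 13.1 and 19.1 at E16, 10.9 and 14.2 at E18, 21.2 and 20.7 at E21, then 42.8 and 80.0 at E28 CPM, with no overlap between periods (log2 fold change 1.29 ± 0.41 (SE), adjusted p = 0.043). SPRY1 was at 23.2 and 27.3 at E16, 18.3 and 24.8 at E18, 25.1 and 39.5 at E21, then 84.5 and 199.97 at E28 CPM, with E21-ZZ inside the early range, and did not pass (log2 fold change 1.60 ± 0.55 (SE), adjusted p = 0.054). It passed under 5 alternatives, which were DESeq2, a mitochondrial limit of 5%, no breed term, and leaving out E21-ZZ or E21-DZ. SPRY4 did not pass either (log2 fold change 1.05 ± 0.50 (SE), adjusted p = 0.14). E28-DZ, the highest library for SPRY1 and SPRY2, also stood apart in immediate-early genes, which dissociation induces. FOS was at 720.0 and 440.0 at E16, 116 and 243 at E18, 348 and 524 at E21, then 613 and 2608 at E28 CPM. The summed level of 13 such genes was 3362 and 2467 at E16, 1746 and 1980 at E18, 1806 and 1950 at E21, then 2045 and 5757 at E28 CPM. The part of dissociation was not tested, and the SPRY2 difference was 0.82 without E28-DZ and did not pass (adjusted p = 0.14). FGF10, a ligand of mesenchyme in limb and lung, was at 5.17 and 5.5 at E16, 5.78 and 5.83 at E18, 2.52 and 4.53 at E21, then 3.81 and 4.79 at E28 CPM, all late libraries below all early ones (log2 fold change -0.72 ± 0.23 (SE), adjusted p = 0.047). FGF8, a signal of the early segmental plate and myotome, gave -0.14 ± 0.59, adjusted p = 0.87. FGFR2 (-0.59 ± 0.21, adjusted p = 0.061) and FGFR3 (-0.40 ± 0.42, adjusted p = 0.48) did not pass, though FGFR2 passed with DESeq2, at a mitochondrial limit of 5% and without E21-DZ. FGFR3 passed under 1 alternative.

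These calls rested on few libraries. Without the E16 libraries, and likewise without the E28 libraries, none of the 10 genes passed, and leaving out any 1 library gave between 1 and 6 calls. FGF9 kept its call without any single library, and FGF10 lost it with each of the 8 left out in turn and without the low-count filter. FGFR1 lost it without E16-ZZ, E16-DZ, E28-ZZ or E28-DZ, FGFR4 without any single library other than E18-ZZ, E21-ZZ, E21-DZ, and SPRY2 without any single library other than E21-ZZ, E21-DZ. Whole libraries also differ in their cell types, and fewer cells of a type and less RNA per cell cannot be told apart in them.

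**Figure D1:**
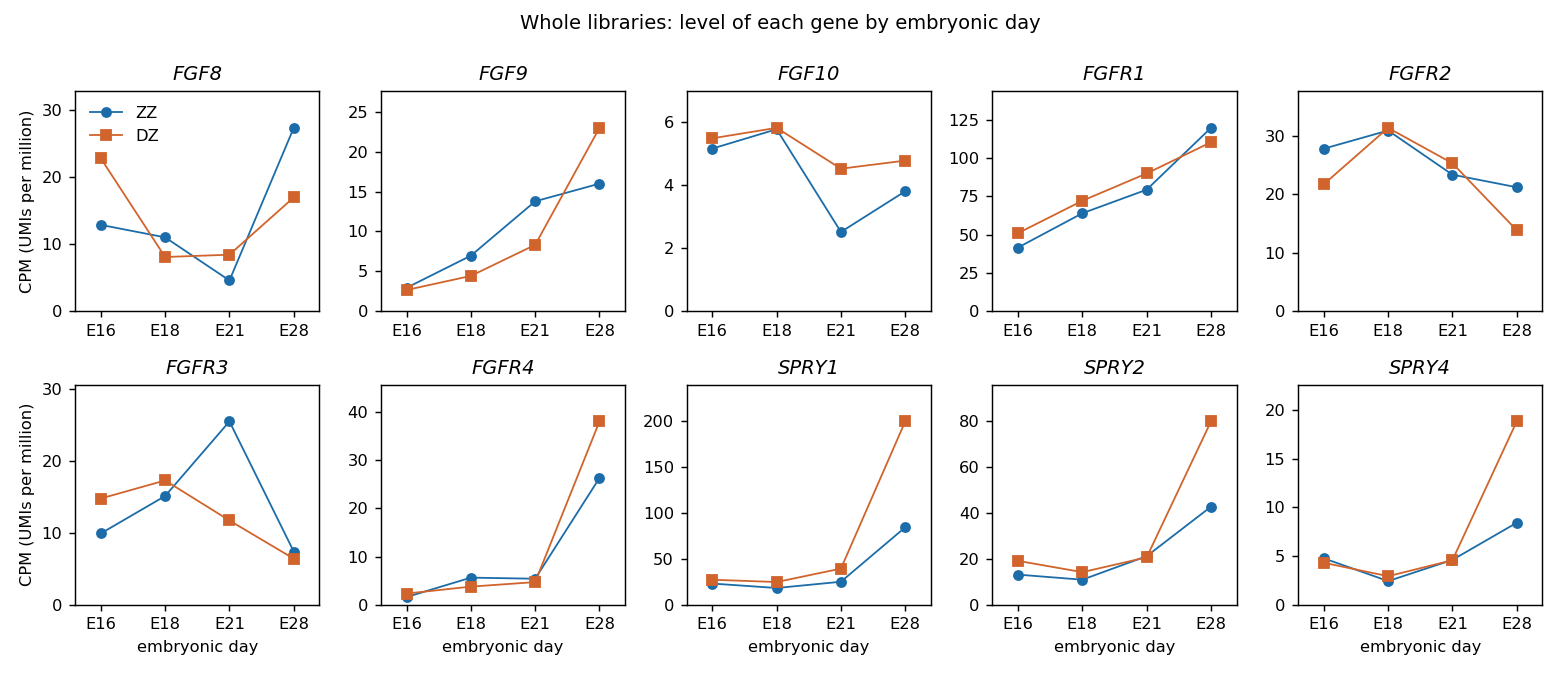
CPM (vertical axis, linear from 0) of each of the 10 genes in the 8 whole libraries by embryonic day (horizontal axis), with circles for ZZ and squares for DZ, 1 library per point. FGF9, FGFR1 and SPRY2 lie higher in all 4 late libraries than in the early ones, and FGFR4 stands out only at E28, at 26.3 and 38 CPM.

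The breeds were compared within stages. No member and no gene at all passed between DZ and ZZ (edgeR, 15119 genes, 0%), with 918 genes at an unadjusted p under 0.05, and DESeq2 called 57 genes, none of them a member. SPRY1 gave the lowest p of the 10 (0.63 ± 0.15, adjusted p = 0.76), followed by SPRY2 (0.43 ± 0.12, adjusted p = 0.79). The 13 immediate-early and dissociation genes, none of which passed, had a median log2 fold change of 0.75 in the same comparison, against -0.01 for all genes, and their part was not tested. The late-against-early change did not differ by breed for any gene (edgeR, 0 of 15119 genes, 124 at an unadjusted p under 0.05). For SPRY1 the interaction was 0.77 ± 1.10, adjusted p = 1, a spread wide enough to hold large differences.

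Between the gated cell types the pathway was divided by gene. Cells in no single gate held 40.8% (SPRY4) to 61.4% (FGFR2) of each gene's UMIs. That share was 60.3% for FGFR3, 58.4% for FGF10, 55.1% for FGF8, 55% for FGFR1 and 52.1% for FGFR4. The groups are therefore no full account of where these genes were detected. In the fit of 15 gated groups over 90 sums, 71 of 150 gene and group pairs passed, 40 higher and 31 lower than the mean of the other groups. That mean was of fitted log-scale levels with library as a covariate, and it included erythroid cells at or near 0 UMIs. A call can therefore differ from the order of mean CPM. FGF9 in lateral and coelomic cells was called higher, though its mean of 5.23 CPM ranked 8 of 15. The share of all genes passing ran from 6.49% in the tendon-gene group and 6.53% in PAX3+ cells to 53.2% in erythroid cells and 55.3% in neurons. Each group's calls are given beside that share by direction.

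Cardiac cells had 0 of the 10 higher, beside 12% of all genes, and 1 of the 10 lower (FGFR1), beside 6.63% of all genes. For chondrogenic cells the calls were 4 of the 10 higher (FGFR1, FGFR2, FGFR3, FGFR4), beside 11.9% of all genes, and 2 of the 10 lower (SPRY1, SPRY2), beside 6.18% of all genes. Among crest and glial cells there were 1 of the 10 higher (FGFR4), beside 13.4% of all genes, and 3 of the 10 lower (FGF8, FGF10, FGFR2), beside 7.68% of all genes. Endothelial cells had 3 of the 10 higher (SPRY1, SPRY2, SPRY4), beside 26.7% of all genes, and 3 of the 10 lower (FGF10, FGFR2, FGFR3), beside 20.3% of all genes. For epithelial cells the calls were 4 of the 10 higher (FGF8, FGFR2, FGFR3, SPRY2), beside 11.7% of all genes, and 0 of the 10 lower, beside 2.64% of all genes. Among erythroid cells there were 0 of the 10 higher, beside 22.7% of all genes, and 6 of the 10 lower (FGF9, FGFR1, FGFR2, SPRY1, SPRY2, SPRY4), beside 30.5% of all genes. Fibroblast-type cells had 6 of the 10 higher (FGF8, FGF10, FGFR1, FGFR2, SPRY2, SPRY4), beside 17.4% of all genes, and 1 of the 10 lower (FGFR3), beside 3.68% of all genes. For lateral and coelomic cells the calls were 3 of the 10 higher (FGF9, FGF10, FGFR2), beside 10.4% of all genes, and 1 of the 10 lower (FGF8), beside 2.79% of all genes. Among MYF5+ cells there were 6 of the 10 higher (FGF8, FGF9, FGF10, FGFR4, SPRY1, SPRY2), beside 10.6% of all genes, and 1 of the 10 lower (FGFR2), beside 4.77% of all genes. Myocyte cells had 5 of the 10 higher (FGF9, FGF10, FGFR4, SPRY1, SPRY2), beside 24% of all genes, and 3 of the 10 lower (FGFR1, FGFR2, FGFR3), beside 19.6% of all genes. For neural progenitor cells the calls were 3 of the 10 higher (FGFR1, FGFR2, FGFR3), beside 20% of all genes, and 3 of the 10 lower (FGF8, SPRY2, SPRY4), beside 16.2% of all genes. Among neuron cells there were 2 of the 10 higher (FGF9, FGFR3), beside 30.2% of all genes, and 6 of the 10 lower (FGF8, FGFR1, FGFR2, FGFR4, SPRY1, SPRY4), beside 25.2% of all genes. PAX1/PAX9 cells had 1 of the 10 higher (FGFR1), beside 8.38% of all genes, and 1 of the 10 lower (SPRY2), beside 5.02% of all genes. For PAX3+ cells the calls were 0 of the 10 higher, beside 4.59% of all genes, and 0 of the 10 lower, beside 1.94% of all genes. Among tendon-gene cells there were 2 of the 10 higher (FGF8, FGFR1), beside 4.68% of all genes, and 0 of the 10 lower, beside 1.81% of all genes.

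The least stable of these calls, with the number of alternative settings or left-out libraries under which each was lost, were FGFR3 in fibroblast-type cells (14), FGF8 in crest and glial cells (10), FGF8 in neural progenitor cells (10), FGF10 in crest and glial cells (9), FGFR2 in neuron cells (9), FGF9 in lateral and coelomic cells (7), FGFR2 in crest and glial cells (6), FGF10 in endothelial cells (6), SPRY4 in erythroid cells (6), SPRY4 in neural progenitor cells (6), FGF10 in fibroblast-type cells (5), FGF8 in lateral and coelomic cells (5) and SPRY2 in PAX1/PAX9 cells (5). Further calls were lost under 1 to 4 alternatives. Calls were gained most often for SPRY1 in fibroblast-type cells and FGFR2 in PAX1/PAX9 cells (8 alternatives each), both not called above.

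**Figure D2:**
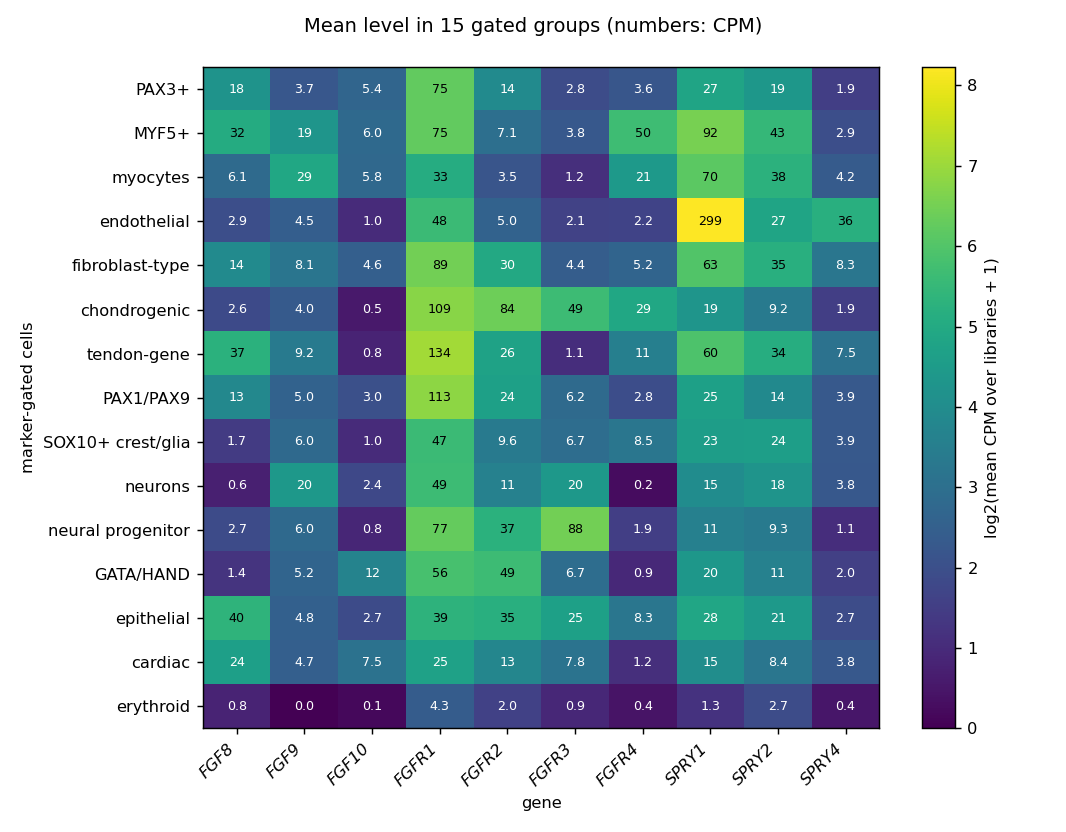
Mean CPM over libraries of each gene (columns) in 15 gated cell groups (rows), coloured by log2(mean CPM + 1) and printed in the cells. SPRY1 and SPRY4 are highest in endothelial cells, FGFR2 in chondrogenic cells and FGFR3 in neural progenitor cells, and erythroid cells are low for all 10.

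Among the ligands, FGF8 was called higher in tendon-gene cells, selected by TNMD, SCX, MKX and KERA (3.38 ± 0.74, adjusted p = 0.0011, where 6.49% of genes passed), in epithelial cells (2.29 ± 0.60, adjusted p = 0.0035, 14.3% of genes, lost with DESeq2), in MYF5+ cells (2.27 ± 0.45, adjusted p = 0.00012, 15.4% of genes) and in fibroblast-type cells (2.11 ± 0.40, adjusted p = 2.6e-05, 21% of genes), selected by LUM, DCN and OGN. In the tendon-gene group it was at 28.9 and 23 at E21, then 42.4 and 54.8 at E28 CPM, above erythroid background in every library. The highest value of all was in cells with presomitic genes such as TBX6 and MSGN1, at 236 CPM in E16-DZ, the 1 library with enough of them. The MYF5+ call was lost without E18-DZ. The order of the highest groups (epithelial, tendon-gene, MYF5+) lay within their spread between libraries.

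FGF9 was called higher in myocytes, selected by MYOG, MYMK, MYH3 and CKM (2.37 ± 0.26, adjusted p = 3.1e-12, 43.6% of genes), in neurons (1.61 ± 0.28, adjusted p = 7.0e-07) and in MYF5+ cells (1.24 ± 0.28, adjusted p = 0.00091, lost without E28-DZ). Neurons had 8.16 at E16 in DZ alone, 17.2 and 11.3 at E18, 33.3 and 18.9 at E21, then 31.7 and 19.7 at E28 CPM and myocytes 7.36 and 7.2 at E18, 54.3 and 16 at E21, then 44.4 and 42.9 at E28 CPM. The E16 neuron value came from 25 cells and fewer than 3 FGF9 UMIs, and the E18 myocyte values were 3 UMIs each. Neurons were above myocytes at E18, and the means of these groups lay within their spread. No FGF9 UMI was seen in erythroid cells of any library, where 3 UMIs would be 1.71 to 9.95 CPM. FGF10 was called higher in cells with GATA4 or GATA6 and HAND1 or HAND2, the lateral and coelomic mesoderm genes (2.46 ± 0.36, adjusted p = 1.1e-07, 13.2% of genes), at 11.9 and 12.3 at E16, then 8.13 and 14.6 at E18 CPM. Limb and body wall cells with TBX5 or TBX4 and PRRX1 had too few libraries for the fit, and gave 53.8 at E18 in ZZ alone, then 10.5 at E21 in DZ alone CPM. That E21 value came from 31 cells and fewer than 3 FGF10 UMIs.

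Among the receptors, FGFR1 was high in the tendon-gene (1.16 ± 0.21, adjusted p = 6.1e-05), chondrogenic (1.06 ± 0.17, adjusted p = 1.1e-06) and PAX1/PAX9 groups (0.94 ± 0.14, adjusted p = 2.3e-07, 13.4% of genes). It was lower in myocytes (-0.59 ± 0.18, adjusted p = 0.0061), neurons (-0.69 ± 0.18, adjusted p = 0.00061) and cardiac cells (-0.93 ± 0.33, adjusted p = 0.036, lost without E21-DZ, with doublets kept and with DESeq2's size factors). FGFR2 and FGFR3, receptors that act on growing cartilage, were both called higher in chondrogenic cells (18.1% of genes). FGFR2 there was at 43.9 at E16 in DZ alone, 96.4 and 98.5 at E21, then 84.5 and 98.9 at E28 CPM (3.38 ± 0.25, adjusted p = 1.1e-19), and its gap to the next group exceeded the SD of either. FGFR3 was at 32.9 at E16 in DZ alone, 32.7 and 31.2 at E21, then 66.6 and 81.6 at E28 CPM (3.58 ± 0.32, adjusted p = 2.5e-15).

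FGFR3 had its highest mean in neural progenitor cells, within their spread of the chondrogenic mean, at 48.1 and 49.4 at E16, 60.7 and 83.7 at E18, then 186 and 102 at E21 CPM (3.74 ± 0.25, adjusted p = 3.8e-22, 36.2% of genes). It was above the neuron level in each library with both groups, and in neurons it was at 40.8 at E16 in DZ alone, 19.7 and 50.2 at E18, 15.9 and 11.8 at E21, then 0 and 0 at E28 CPM, where the zeros allow up to 11.9 and 2.95 CPM. The late-against-early difference of FGFR3 in neurons did not pass (-2.11 ± 0.80, adjusted p = 0.1). FGFR4 was called higher in MYF5+ cells (3.05 ± 0.47, adjusted p = 5.8e-07), myocytes (2.63 ± 0.53, adjusted p = 2.4e-05), chondrogenic cells (2.35 ± 0.57, adjusted p = 0.0016, lost with DESeq2) and SOX10+ crest and glial cells (1.75 ± 0.51, adjusted p = 0.0071, 21.1% of genes, lost without E18-DZ). Its mean was highest in MYF5+ cells, then chondrogenic cells and myocytes, within their spread. Chondrogenic FGFR4 was at 5.48 at E16 in DZ alone, 10.9 and 9.05 at E21, then 58.9 and 59.5 at E28 CPM. The E16 value came from 27 cells and fewer than 3 FGFR4 UMIs. Summed over 10 muscle genes, the level in those chondrogenic cells was 373 at E16 in DZ alone, 32.7 and 24.1 at E21, then 29.5 and 87.8 at E28 CPM, and its part in this result was not tested. Of the 10 genes, 8 were at 0 at E16 in DZ, 7 and 5 at E21, then 1 and 2 at E28.

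**Figure D3:**
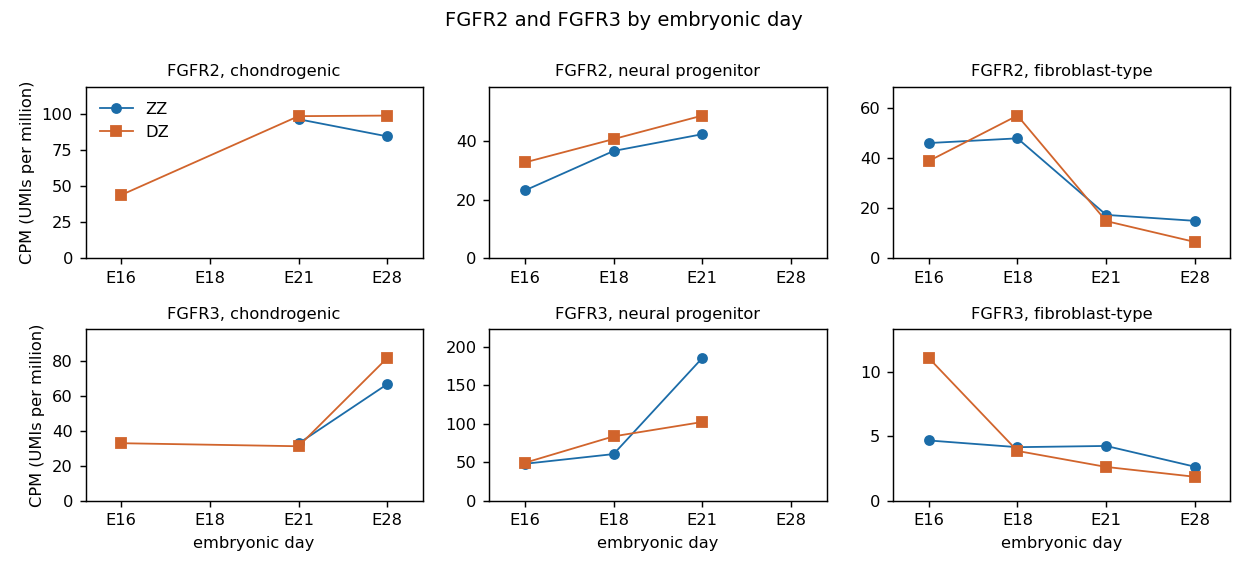
CPM (vertical axis, linear from 0) of FGFR2 and FGFR3 by embryonic day (horizontal axis) in chondrogenic, neural progenitor and fibroblast-type cells, 1 point per library with at least 20 cells (circles ZZ, squares DZ). FGFR2 in fibroblast-type cells drops from 47.9 and 57 CPM at E18 to 15 and 6.57 at E28.

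Endothelial cells, selected by PECAM1, CDH5, KDR and related genes, had the highest mean SPRY1 (2.95 ± 0.21, adjusted p = 6.7e-21) and SPRY4 (3.46 ± 0.22, adjusted p = 3.0e-24), where 46.9% of genes passed. The gap to the next group was within the SD between libraries for SPRY1 and beyond it for SPRY4. Immediate-early and dissociation genes moved with them in some groups and not in others. Of 12 tested, 10 were higher in endothelial cells (median log2 fold change 1.79) and 10 in fibroblast-type cells (0.81). By contrast 10 were lower in neurons (-1.97) and 7 in neural progenitor cells (-0.91). In MYF5+ cells, also high in SPRY1 and SPRY2, none of the 12 passed (-0.11), and in myocytes 5 were higher (0.22). In chondrogenic cells 5 were higher (0.30) while SPRY1 and SPRY2 were lower. Lateral and coelomic cells had 7 higher and crest and glial cells 8 lower, with no Sprouty call in either. The part of dissociation in the Sprouty differences was not tested. SPRY2 was also higher in endothelial cells (0.75 ± 0.18, adjusted p = 0.00024), and the call was lost at a mitochondrial limit of 5%. MYF5+ cells and myocytes had raised SPRY1 (1.09 ± 0.29, adjusted p = 0.0046 and 1.28 ± 0.31, adjusted p = 0.0005) and SPRY2 (1.01 ± 0.20, adjusted p = 7.9e-05 and 1.22 ± 0.21, adjusted p = 1.4e-06). Chondrogenic cells, high in 4 receptors, were low in SPRY1 (-1.52 ± 0.46, adjusted p = 0.012, lost with doublets kept and without E28-ZZ) and SPRY2 (-1.68 ± 0.32, adjusted p = 5.0e-05). Over the 15 group means the correlation of log2(CPM + 1) was 0.86 for SPRY1 with SPRY2 and 0.84 for SPRY1 with SPRY4, a description over means from the same libraries.

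In the muscle lineage, FGF8 was highest in MYF5+ cells of E18. It was at 72.2 and 109.8 at E18, 5.38 and 1.67 at E21, then 2.61 and 2.13 at E28 CPM in MYF5+ cells, so both E18 libraries were high and all 4 later ones were low. PAX3+ cells were at 36.6 and 31 at E16, 19.8 and 19.1 at E18, then 0 and 0 at E21 CPM, where the zeros allow up to 7.01 and 8.93 CPM. Within libraries MYF5+ cells exceeded PAX3+ cells (log2 fold change 2.19 ± 0.29 (SE), adjusted p = 0.0011), the 1 member called where 0.438% of 10498 genes passed (0.352% higher and 0.0857% lower). Only the E18 and E21 libraries had enough cells of both groups. The excess was seen in both E18 libraries, while the MYF5+ values at E21 lay below what the PAX3+ zeros allow. The call was lost without E18-DZ (log2 fold change 1.89, adjusted p = 0.091) and without the library term. The other 9 members did not pass, among them FGFR4 (1.54 ± 0.61, adjusted p = 0.57) and FGFR1 (-0.03 ± 0.14, adjusted p = 1).

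FGFR4 went the other way in time. MYF5+ cells had 0 and 0 at E18, 35.4 and 26.7 at E21, then 93.3 and 144 at E28 CPM, with no UMI in either E18 library (up to 2.35 and 2.40 CPM) and a higher level at E28 than at E21 in both breeds. The summed level of 10 muscle genes in the same cells was 667 and 666 at E18, 1406 and 1170 at E21, then 2112 and 3548 at E28 CPM, rising with FGFR4, and MYOD1 was at 0 in both E18 libraries, so the gated cells themselves differed by stage. Myocytes had 0 and 2.4 at E18, 27.2 and 25.2 at E21, then 28.3 and 41.4 at E28 CPM, with E28 close to E21 in ZZ and above it in DZ. Both E18 myocyte values were below 3 UMIs. FGF9 in MYF5+ cells was at 5.49 and 3.21 at E18, 11.5 and 13.4 at E21, then 29.6 and 49.5 at E28 CPM, also higher at each later stage. SPRY1 in MYF5+ cells was at 14.1 and 19.2 at E18, 70.8 and 70.8 at E21, then 106 and 274 at E28 CPM. FOS, an immediate-early gene, was at 53.3 and 129.9 at E18, 494 and 430.2 at E21, then 512 and 1483 at E28 CPM beside it. Summed over 13 immediate-early and dissociation genes, the level in these cells was 1608 and 1659 at E18, 2015 and 1696 at E21, then 2092 and 4047 at E28 CPM, with E28-DZ apart from the rest, and the part of dissociation in this was not tested. With only the E18 libraries on the early side, the period change in MYF5+ cells was not tested.

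Myocytes against MYF5+ cells gave 4 members past the threshold, where 41.6% of 10498 genes passed. FGF8 (-1.95 ± 0.35, adjusted p = 0.00018), FGFR1 (-0.84 ± 0.13, adjusted p = 2.1e-05) and FGFR4 (-0.79 ± 0.27, adjusted p = 0.026) were lower in myocytes and FGF9 was higher (0.92 ± 0.25, adjusted p = 0.0052). FGF8 had only 21 UMIs in all myocytes, with a median of 1.38 CPM, a highest value of 22.1 and no UMI in 2 of 6 libraries. MYF5+ cells were themselves low in FGF8 at E21 and E28, so its fold change is poorly fixed. FGFR1 was at 80.0 and 79.4 at E18, 68.5 and 82.5 at E21, then 67.1 and 71.8 at E28 CPM in MYF5+ cells and 31.9 and 31.2 at E18, 34.7 and 26.7 at E21, then 35.1 and 37.8 at E28 CPM in myocytes, with no overlap. The FGFR4 call was lost with DESeq2, without either E28 library and with doublets kept, and the FGF9 call without E21-ZZ (adjusted p = 0.052). Without the library term the FGF8, FGF9 and FGFR4 calls were lost.

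**Figure D4:**
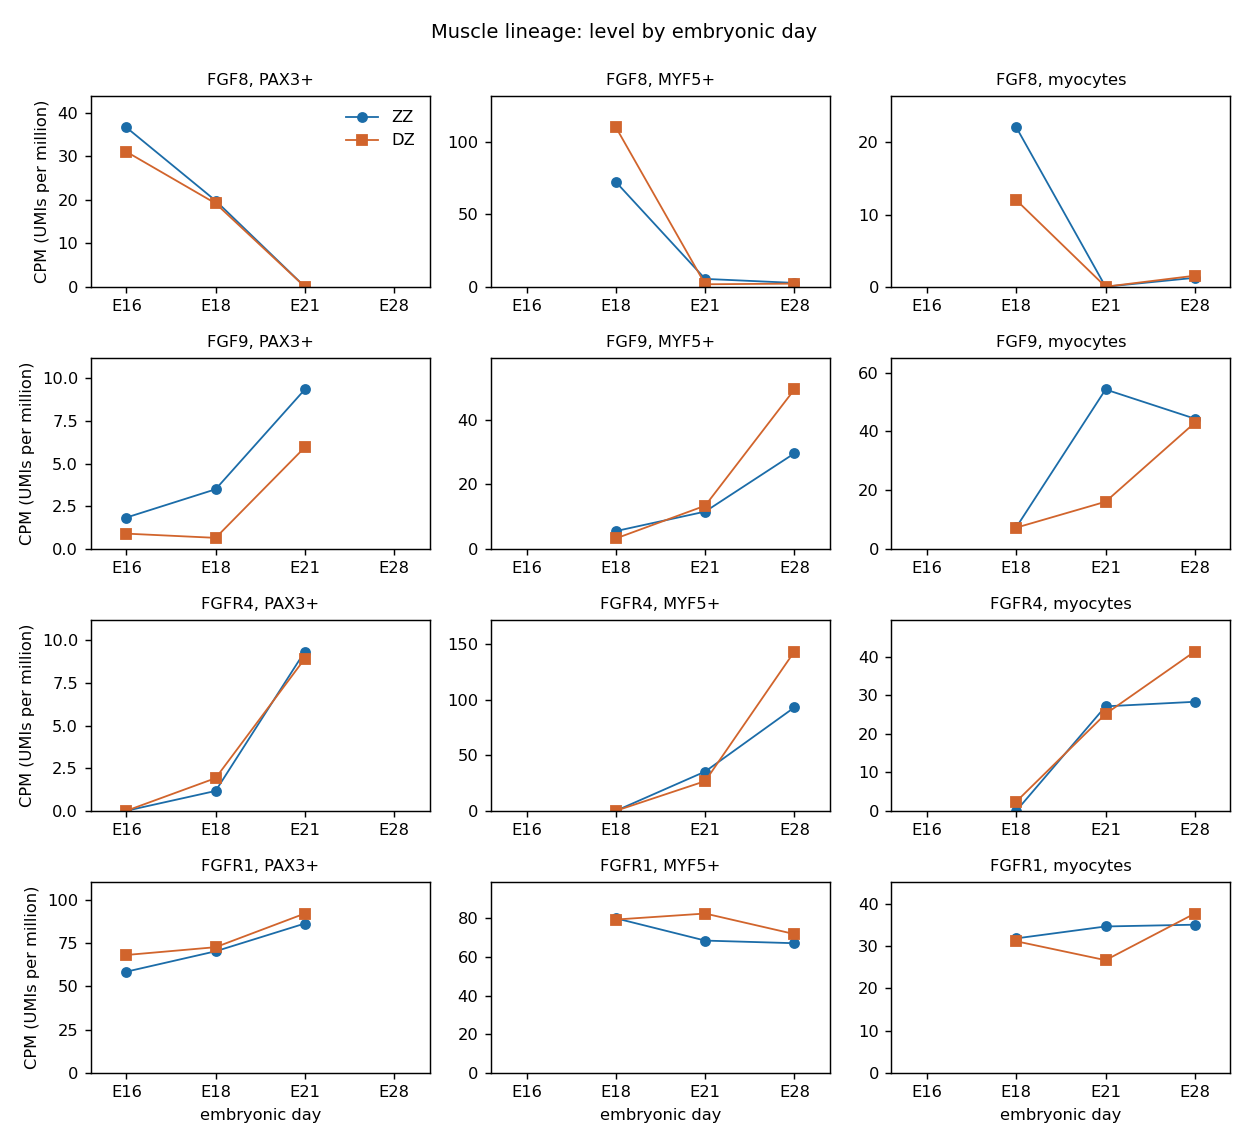
CPM (vertical axis, linear from 0) of FGF8, FGF9, FGFR4 and FGFR1 by embryonic day (horizontal axis) in PAX3+, MYF5+ and myocyte gated cells, 1 point per library with at least 20 cells (circles ZZ, squares DZ). FGF8 in MYF5+ cells is high at E18 only, at 72.2 and 109.8 CPM, while FGFR4 climbs to 93.3 and 144 CPM at E28.

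Other pathway genes were counted at the same step, where 21.3% of all genes were higher and 20.4% lower. Of the other FGF ligands tested, 2 rose, 0 fell and 2 did not pass (median log2 fold change 1.77 against -0.04 for all genes), with FGF6, a ligand of skeletal muscle, at 5.92 ± 0.91 and FGF5 at 2.60 ± 0.39 (log2 fold change ± SE). Of the intracellular FGF homologous factors, which bind sodium channels rather than receptors, 2 rose, 1 fell and 0 did not pass (median log2 fold change 2.47 against -0.04 for all genes) (FGF12 4.21 ± 0.49, FGF13 2.47 ± 0.11, FGF14 -2.28 ± 0.56). Of the co-receptors and modulators, 5 rose, 3 fell and 5 did not pass (median log2 fold change 0.29 against -0.04 for all genes), and the syndecan SDC1 (-1.91 ± 0.28), CDH2 (-1.66 ± 0.36) and the glypican GPC3 (-1.46 ± 0.24) were lower. Of the adaptor and MAP kinase genes, 5 rose, 0 fell and 9 did not pass (median log2 fold change 0.18 against -0.04 for all genes), led by GRB2 (1.44 ± 0.12) with MAP2K1 (1.33 ± 0.12) and GAB1 (0.76 ± 0.23). Of the other feedback and response genes, 1 rose, 4 fell and 4 did not pass (median log2 fold change -0.63 against -0.04 for all genes), with the ETS factors ETV4 (-1.84 ± 0.35) and ETV1 (-1.24 ± 0.20) lower and DUSP4 (0.92 ± 0.34) higher. Of the immediate-early and dissociation genes, 6 rose, 0 fell and 6 did not pass (median log2 fold change 0.40 against -0.04 for all genes), with KLF2 at 2.13 ± 0.17, EGR1 at 1.40 ± 0.25 and KLF4 at 0.97 ± 0.26.

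Within cell types, late cells were compared with early ones in 6 groups, and 30 of 60 gene and group pairs had enough UMIs to be tested. Of these, 16 passed. In fibroblast-type cells all 10 were tested and 8 passed, 7 higher and 1 lower, against 24.4% of 11085 genes. FGF8 was at 1.71 and 5.55 at E16, 2.08 and 3.32 at E18, 17.2 and 19 at E21, then 40.7 and 25.9 at E28 CPM, every late library above every early one. FGF9 was at 0 to 6.25 CPM in the early libraries and reached 21.2 CPM in a late one. FGFR1 was higher late (0.74 ± 0.17, adjusted p = 0.014). FGFR2 was the 1 that fell, from 46.1 and 38.9 at E16, 47.9 and 57 at E18, 17.4 and 14.9 at E21, then 15 and 6.57 at E28 CPM, again without overlap (log2 fold change -2.05 ± 0.29 (SE), adjusted p = 0.0013).

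FGFR4 in fibroblast-type cells was at 0.426 and 0 at E16, 0 and 0 at E18, 3.44 and 2.63 at E21, then 14.2 and 21 at E28 CPM, 1 UMI in all early libraries together. FGFR4 passed the low-count filter through the late libraries in which it was high, as did FGF8, FGF9 and SPRY4 in these cells. Their places among the 8 are descriptions, and neither fitted fold changes nor p are given for them. The same held, through the early libraries, for FGFR2 in endothelial cells, FGFR2 and FGFR4 in crest and glial cells and SPRY1 in neurons, which are among the 16 pairs called and are described by their values. The summed level of 10 muscle genes in the same cells was 61 and 53.7 at E16, 71.9 and 100.2 at E18, 204 and 142 at E21, then 224 and 487 at E28 CPM, none of the 10 was at 0 in the E28 libraries, and their part in this result was not tested. The FGFR4 call was lost without E16-ZZ or E18-DZ, and the FGF9 call without either E16 library, E18-DZ or E28-ZZ.

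In endothelial cells SPRY1 and SPRY4 rose and SPRY2 did not pass. SPRY1 there was at 37.8 and 38.4 at E16, 39 and 67.7 at E18, 219 and 593 at E21, then 398 and 999 at E28 CPM, with the lowest late library above the highest early one (log2 fold change 3.39 ± 0.30 (SE), adjusted p = 0.00011). 26.3% of 9268 genes passed in endothelial cells. SPRY4 was at 15.4 and 10.5 at E16, 13.5 and 16 at E18, 34.8 and 65.9 at E21, then 50.5 and 80.6 at E28 CPM, also without overlap (log2 fold change 1.94 ± 0.26 (SE), adjusted p = 0.00071). SPRY2 was at 20.7 and 21.3 at E16, 20.9 and 23.5 at E18, 16.2 and 50.4 at E21, then 15 and 50.2 at E28 CPM and did not pass (0.40 ± 0.30, adjusted p = 0.35). FGFR2 there was at 6.65 and 6.1 at E16, 8.89 and 8.19 at E18, 2.49 and 3.87 at E21, then 0 and 3.58 at E28 CPM, every late library below every early one, and its call was lost without any 1 of the late libraries, with DESeq2 and with at least 50 cells per sum.

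In fibroblast-type cells SPRY1 was at 11.9 and 20.4 at E16, 16.7 and 17.2 at E18, 33 and 48.5 at E21, then 97 and 261 at E28 CPM (2.39 ± 0.55, adjusted p = 0.013). SPRY2 was at 7.68 and 7.4 at E16, 7.3 and 8.3 at E18, 35.6 and 28.6 at E21, then 55.8 and 131 at E28 CPM (2.69 ± 0.47, adjusted p = 0.0036). SPRY4 was at 1.28 and 9.26 at E16, 1.04 and 1.11 at E18, 9.68 and 6.25 at E21, then 9.97 and 27.9 at E28 CPM. It passed the low-count filter through the late libraries and is described by these values. The SPRY1 call was lost without E18-DZ, and the SPRY4 call without E16-ZZ, E18-ZZ, E18-DZ or E28-ZZ. SPRY1 and SPRY2 did not overlap between periods, though early SPRY2 lay within the erythroid range of 0 to 9.78 CPM, while SPRY4 in E16-DZ lay inside the late range. E28-DZ was the highest library for all of these.

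Immediate-early genes, which cell dissociation induces, moved in part with them. FOS was at 649 and 521 at E16, 182 and 355 at E18, 834 and 1375 at E21, then 1038 and 2977 at E28 CPM in endothelial cells. In fibroblast-type cells it was at 886 and 1014 at E16, 349 and 682 at E18, 461 and 547 at E21, then 669.8 and 3233 at E28 CPM, and E28-DZ was the highest library in both. The summed level of 13 such genes was 4037 and 2963 at E16, 2409 and 2751 at E18, 3766 and 6345 at E21, then 4069 and 10237 at E28 CPM in endothelial cells. It was 3181 and 2893 at E16, 1866 and 2509 at E18, 1906 and 1964 at E21, then 2101 and 6744 at E28 CPM in fibroblast-type cells. In the latter the late libraries other than E28-DZ lay within the early range, while SPRY1 lay above its own. The endothelial SPRY1 and SPRY4 calls held without E28-DZ, and the part of dissociation was not tested.

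**Figure D5:**
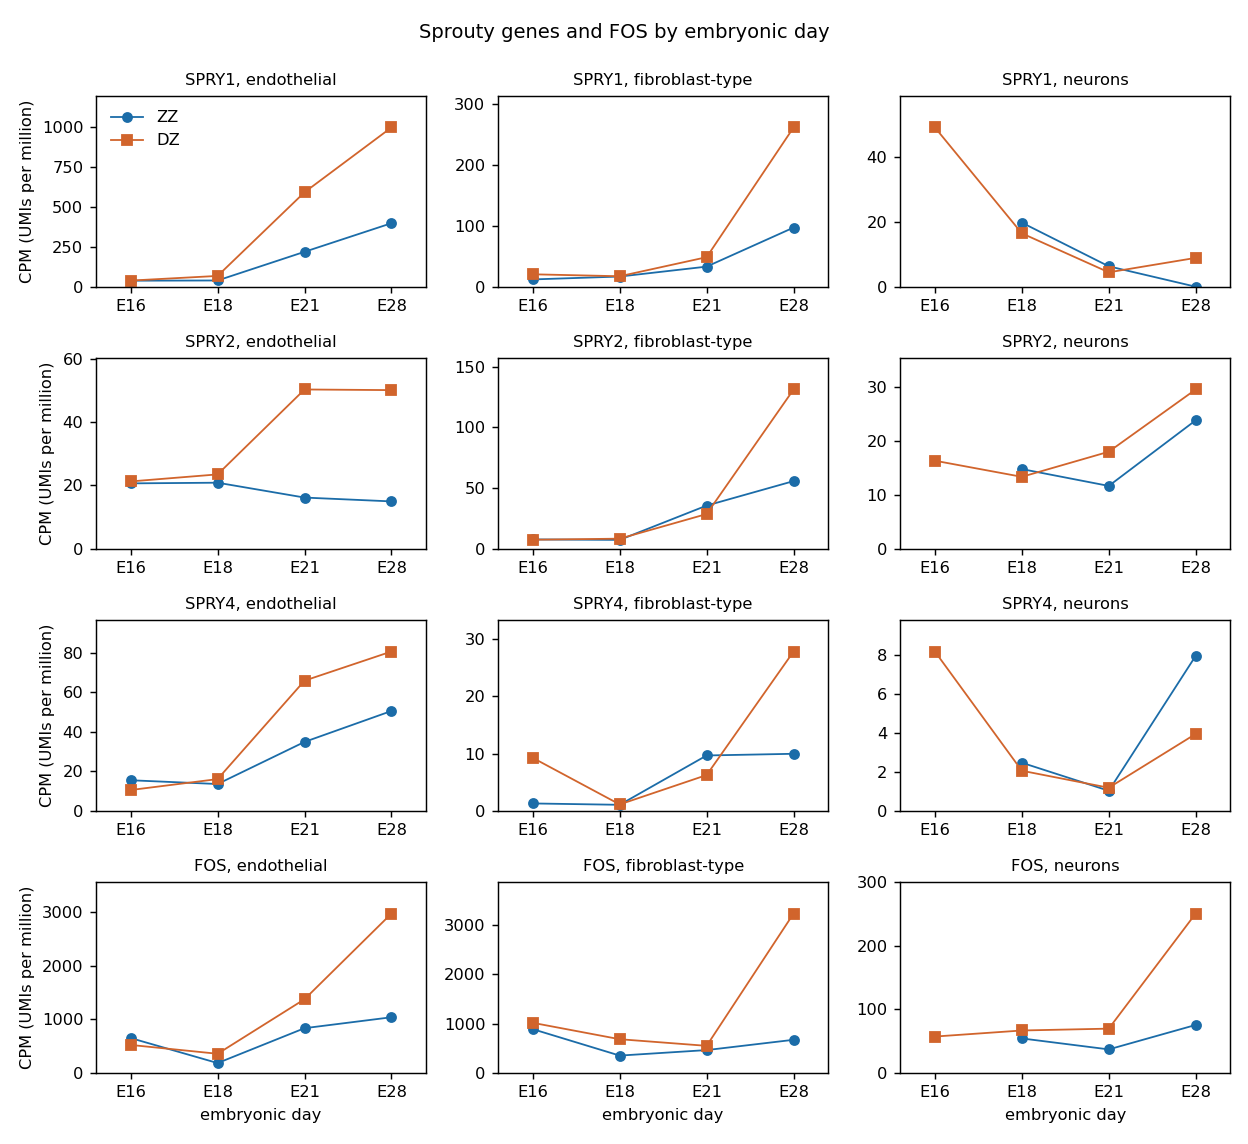
CPM (vertical axis, linear from 0, scaled by panel) of SPRY1, SPRY2, SPRY4 and FOS by embryonic day (horizontal axis) in endothelial, fibroblast-type and neuron gated cells, 1 point per library with at least 20 cells (circles ZZ, squares DZ). Endothelial SPRY1 climbs to 999 CPM in E28-DZ, the library in which FOS is also highest, at 2977 CPM.

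In neurons (14.7% of 9170 genes) FGFR1 fell (-1.43 ± 0.34, adjusted p = 0.02) and SPRY1 was at 49 at E16 in DZ alone, 19.7 and 16.4 at E18, 6.27 and 4.42 at E21, then 0 and 8.86 at E28 CPM, every late library below every early one. The SPRY1 call was lost without either E21 library and with doublets kept. In SOX10+ crest and glial cells (27.1% of 8671 genes) FGFR4 was at 11.7 and 13.1 at E16, 15.9 and 18.7 at E18, 1.38 and 0 at E21, then 7.04 and 0 at E28 CPM, all late libraries below all early ones. The summed level of 10 muscle genes in the same cells was 477 and 390.0 at E16, 224 and 207 at E18, 83.4 and 57.4 at E21, then 167.3 and 136 at E28 CPM, also lower in every late library than in every early one, and its part in this result was not tested. Of the 10 genes, 7 and 5 were at 0 at E16, 6 and 2 at E18, 1 and 5 at E21, then 2 and 1 at E28. MYOD1 and MYOG were at 0 in both E16 libraries, so the early sums rest on few of the 10. FGFR2 there was at 7.79 and 12.1 at E16, 18.6 and 17.1 at E18, 5.07 and 7.89 at E21, then 5.28 and 2.74 at E28 CPM, with E16-ZZ inside the late range. SPRY2 was higher (0.78 ± 0.25, adjusted p = 0.036), a call lost with DESeq2, with doublets kept and without any 1 of 6 libraries. Of 10 immediate-early and dissociation genes tested in crest and glial cells, 4 rose, 1 fell and 5 did not pass (median log2 fold change 0.72 against 0.02 for all genes), with KLF4 at 3.16 ± 0.42, FOSB at 2.47 ± 0.41 and KLF2 at 1.71 ± 0.52, and their part was not tested. In PAX1/PAX9 cells FGFR1 (0.53 ± 0.19, adjusted p = 0.069) and FGFR2 (0.51 ± 0.30, adjusted p = 0.26) were tested and neither passed (17.6% of genes), and in erythroid cells no member had enough UMIs (2.14% of genes).

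Other pathway genes were counted in the same cells. In fibroblast-type cells 12% of all genes were higher and 12.4% lower. In fibroblast-type cells, of the other feedback and response genes, 5 rose, 1 fell and 3 did not pass (median log2 fold change 0.92 against 0.04 for all genes), with ETV4 (3.32 ± 0.58) and ETV1 (2.57 ± 0.32) higher and DUSP5 lower (-1.73 ± 0.54). Of the adaptor and MAP kinase genes, 3 rose, 0 fell and 11 did not pass (median log2 fold change 0.12 against 0.04 for all genes), with GAB1 (0.87 ± 0.25) and FRS2 (0.73 ± 0.21) higher, and of the co-receptors and modulators, 3 rose, 1 fell and 8 did not pass (median log2 fold change 0.33 against 0.04 for all genes), with CDH2 (1.24 ± 0.27) and NCAM1 higher and FLRT3 (-1.16 ± 0.20) lower. In endothelial cells, where 14.3% of all genes were higher and 12.1% lower, the feedback list gave 2 of 9 tested genes higher, DUSP6 (1.29 ± 0.21) and SPRED1 (1.09 ± 0.27), both inhibitors of the MAP kinase relay. Of the immediate-early genes in endothelial cells, 5 rose, 0 fell and 7 did not pass (median log2 fold change 1.10 against 0.02 for all genes), led by SOCS3 (2.70 ± 0.32), DUSP1 (2.19 ± 0.32) and KLF4 (1.81 ± 0.38).

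The genes with the pattern most like each member over the 15 group means were found by Pearson correlation of log2(CPM + 1) among 4995 or 4996 genes. The nearest gene was PDGFC for FGF8 (r = 0.76), ACVR2A for FGF9 (r = 0.96), PSMC1 for FGF10 (r = 0.88) among the ligands. For the receptors it was STAG1 for FGFR1 (r = 0.98), KLHDC10 for FGFR2 (r = 0.90), ZBTB16 for FGFR3 (r = 0.85), VGLL3 for FGFR4 (r = 0.83). For the inhibitors it was DOCK9 for SPRY1 (r = 0.90), SPRY1 for SPRY2 (r = 0.86), SHC1 for SPRY4 (r = 0.92). The group means share libraries, so these values carry no p.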

How the data were processed

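Single-cell 3′ RNA libraries were made from dissociated somites and myotomes on a 10x Genomics Chromium system. The authors deposited raw UMI counts per gene and cell barcode from Cell Ranger, aligned to Sscrofa11.1. From these, cells with at least 200 genes, at most 30000 UMIs and at most 10% mitochondrial UMIs (13 genes) were kept. The highest Scrublet scores were then removed at 0.8% per 1000 cells (8247 cells; scanpy 1.11.5).

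Cells were gated by UMIs of marker genes, and cells passing several gates (3550) or none (38263) were left out of the gated sums. SOX2 had no row, so neural progenitor cells needed 2 of PAX6, SOX3, OLIG2, OLIG3 and HES5. A PAX1/PAX9 gate (at least 2 UMIs) was added after seeing the data, because the planned one was nearly empty. UMI counts were summed per library, or per library and gate with at least 20 cells, and tested with edgeR 4.0.16 (quasi-likelihood, TMM, filterByExpr) in R 4.3.3, adjusted by Benjamini-Hochberg at 0.05. DESeq2 1.42.0 was an alternative. A joint fit of 4 gates, with library as a block, was chosen after seeing the data.

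The members and lists were chosen with earlier results of these data known. Named genes were the 10 members, up to 3 genes per other list with the largest change past the threshold, and the nearest genes by correlation. On simulated counts the test kept its nominal rate at an unadjusted 0.05, but the share of false calls after adjustment was above the nominal level, so calls close to 0.05 are the least secure. Cells are not replicates, and limits for zeros (3 UMIs) cover counting error only. In tests of whole libraries or of periods within a group, p-values measure the spread between libraries, each a pool from 1 sow. For late against early, that spread also holds differences between the stages pooled in a period. In fits of gated groups with library as a term, p-values measure the spread left between gated sums after that term. Those sums come from the same 8 libraries, so very small p-values there do not stand for more pools.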

Additional observations from a re-analysis of the deposited data

Results flagged for a closer look

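The late-against-early change differed between cell groups for 17 of 60 gene and group-pair differences (edgeR joint fit of 4 groups, adjusted p under 0.05). The background was 7.21% to 16.7% of 12018 genes. SPRY1 rose more in endothelial cells than in neurons (difference 4.76 ± 0.72, log2 ± SE) and in crest and glial cells (3.78 ± 0.45), and more in fibroblast-type cells than in neurons (3.62 ± 0.71) and crest cells (2.64 ± 0.49). SPRY4 rose more than in crest cells in endothelial (2.23 ± 0.62) and fibroblast-type cells (2.72 ± 0.73), and the endothelial difference lost its call without E28-DZ (2.16, adjusted p = 0.055). SPRY2 rose more in fibroblast-type cells than in endothelial cells (2.19 ± 0.38), crest cells (1.83 ± 0.38) and neurons (2.26 ± 0.54).

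The change of FGFR1 in fibroblast-type cells exceeded that in crest cells by 1.06 ± 0.25 and neurons by 1.91 ± 0.29, and in endothelial cells it exceeded neurons by 1.39 ± 0.32. The change of FGF8 in fibroblast-type cells exceeded that in endothelial cells by 4.60 ± 0.95, crest cells by 8.89 ± 1.59 and neurons by 8.17 ± 2.13. That of FGFR4 exceeded endothelial cells by 5.86 ± 1.56 and crest cells by 8.61 ± 1.25. The FGF8 and FGFR4 differences rest on libraries at or near 0 UMIs, so their sizes depend on the prior count and are no bounds. FGF8 had too few UMIs to be tested alone in endothelial cells, crest cells or neurons. Its differences, counted among the 17 above, are descriptions. FGFR4 in fibroblast-type cells had 1 early UMI in all, and its differences are descriptions, as are those of SPRY1 against neurons and of FGFR4 against crest cells, where one period was too low to pass the low-count filter. SPRY4 was too low for that filter in crest cells and in early fibroblast-type cells, so its differences are descriptions too.

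Single libraries stood apart from the other 3 of their period in 8 of 140 sets of 4. Chance gives about 1 in 20 for continuous values from like libraries, while these sets mix stages and breeds. A set with UMIs in 1 library alone is always flagged, whatever the count. FGFR4 in PAX1/PAX9 and fibroblast-type cells and FGFR3 in endothelial cells were such sets. In PAX1/PAX9 cells these were FGFR1 in E16-DZ (95.8 CPM), FGFR4 in E18-DZ (1.26, 2 UMIs against none) and SPRY1 in E28-DZ (129). In fibroblast-type cells they were FGFR3 in E16-DZ (11.11), FGFR4 in E16-ZZ (0.426, a single UMI) and SPRY4 in E16-DZ (9.26). In endothelial cells they were SPRY1 in E18-DZ (67.7) and FGFR3 in E28-DZ (1.79, a single UMI against none in the other late libraries).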

How the results depend on the processing

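No result that passed in the main run or in an alternative run changed direction between them. Changes of sign in results that passed in neither were not counted. For late against early libraries, genes called fell from 5048 to 1338 without the E16 libraries and 2552 without the E28 libraries, and members called fell from 5 to 0 in each. Leaving out single libraries gave 2965 to 4680 genes and 1 to 6 members. Between breeds 0 genes were called, 57 with DESeq2, and 1 each without the low-count filter and with doublets kept. MYF5+ against PAX3+ cells gave 46 genes, and 199 without the filter, 26 with a stricter gate, 16 without the library term and 8 to 48 without single libraries. Members called there were 1, and 2 without the filter, 0 without the library term and 0 to 1 without single libraries. For MYH3+ myocytes against MYF5+ cells, genes called were 4370, and 2615 without the library term, with 4 members and 1 member. Late against early within groups gave 16 pairs, 25 without the filter, 9 at a mitochondrial limit of 5% and 8 to 18 without single libraries. The causes were not tested. Depth limits FGF10, SPRY4 and FGF9 most, at 1848, 2302 and 3552 UMIs in all.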

Other observations

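Outside the 10 genes, the other pathway lists were counted late against early in whole libraries, where 34.4% of all genes passed. Of the other FGF ligands tested, 3 rose, 0 fell and 4 did not pass (median log2 fold change 1.65 against 0.02 for all genes), with FGF6 at 4.36 ± 1.01, FGF5 at 2.83 ± 0.48 and FGF1 at 2.59 ± 0.52 (log2 fold change ± SE, edgeR). Of the intracellular FGF homologous factors, 1 rose, 0 fell and 2 did not pass (median log2 fold change 0.59 against 0.02 for all genes) (FGF13 1.64 ± 0.36), and of the co-receptors and modulators, 3 rose, 1 fell and 10 did not pass (median log2 fold change 0.57 against 0.02 for all genes) (NCAM1 1.46 ± 0.32, SDC3 0.62 ± 0.15, FGFRL1 0.47 ± 0.15). Of the adaptor and MAP kinase genes, 3 rose, 3 fell and 10 did not pass (median log2 fold change 0.04 against 0.02 for all genes) (FRS2 0.73 ± 0.19, GAB1 0.70 ± 0.20, NRAS -0.44 ± 0.12), and of the other feedback and response genes, 4 rose, 1 fell and 6 did not pass (median log2 fold change 0.08 against 0.02 for all genes) (SPRED3 2.37 ± 0.66, DUSP5 -1.64 ± 0.51, ETV1 1.41 ± 0.25). Of the immediate-early and dissociation genes, 0 rose, 1 fell and 12 did not pass (median log2 fold change 0.47 against 0.02 for all genes), the 1 that fell being HSPA8 (-0.85 ± 0.20).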
